A study of Mus musculus with 8 samples.

Results

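The genes described here are 37 developmental regulators of mouse, 35 transcription factors and 2 secreted ligands, that are known as classical targets of the polycomb repressive complex PRC2. They were taken by gene name from the 20887 genes that the arrays measured, and all 37 were found. PRC2 adds methyl groups to lysine 27 of histone H3 at the promoters of such genes through its catalytic subunit Ezh2 or the related subunit Ezh1, and the marked genes stay silent in lineages that do not need them. In blood cells, regulators of heart, kidney, gut, limb and nervous system are textbook examples of genes kept off in this way. The comparison asks whether these genes gain signal in blood progenitors without Ezh2.

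Total marrow of 4 genotypes was transplanted into lethally irradiated CD45.1+ recipients, and cells were sorted 2 months later. The double mutant (JAK2V617F/Ezh2Δ/Δ) came from JAK2V617F;Ezh2flox/flox;Cre-ERT2 mice, the Ezh2Δ/Δ group from Ezh2flox/flox;Cre-ERT2 mice, the JAK2V617F group from JAK2V617F;Cre-ERT2 mice and the wild-type group (WT) from Cre-ERT2 mice, so that every group carried the inducible recombinase. Ezh2 was deleted 4 weeks after transplantation in the recipients, and all samples are of strain C57BL/6. How many recipients went into a sample, their age and how many recipient cells were left are not given in the sources used here. JAK2V617F is the activated kinase of myeloproliferative neoplasms. Each genotype was sampled as megakaryocyte and erythroid progenitors (MEP) and as LSK cells, marrow cells without lineage markers that carry Sca-1 and c-Kit, the fraction that holds the stem cells. Each of the 8 groups had 1 one-colour array, so no group has a replicate, and differences were averaged over 4 matched pairs of arrays, each of 1 cell type and 1 JAK2 genotype.

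A level is the log2 signal of a gene's brightest probe minus the 75th percentile of its array, a percentile that lay between 194 and 330 intensity units. A gene was above background on an array where the scanner software flagged at least 1 of its probes as well above background. Levels of different genes come from different probes and are not compared. Of the 9 LSK markers 5 or 6 were above background on the MEP arrays and all 9 on the 4 LSK arrays, while the 8 erythroid markers were all above background on the 4 MEP arrays and 5 to 7 of them on the LSK arrays. Ezh2 itself was above background in all groups, at 3.57 in double mutant MEP, 4.04 in Ezh2Δ/Δ MEP, 3.59 in double mutant LSK and 3.36 in Ezh2Δ/Δ LSK, against 4.23 in JAK2V617F MEP, 4.14 in WT MEP, 3.83 in JAK2V617F LSK and 3.50 in WT LSK. The files do not say which exon the probe covers, so this level checks nothing about the deletion. Xist, the RNA that silences 1 X chromosome in female cells, had levels of 1.57 to 2.99 on the 4 deleted arrays and of -5.29 to -3.07 on the 4 intact arrays, and the Y-linked genes Eif2s3y and Ddx3y were above background on 0 deleted and on 4 intact arrays. Ezh2 status and the sex of the marrow therefore cannot be told apart. None of the 37 genes lies on a sex chromosome (0 of 37).

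The promoters of 4 members show what the sequences share. Gata5 and Nkx2-2 were above background on all 8 arrays, Foxc1 and Foxd1 on 0. Within each pair they are the first by name among members with 1 window in the RefSeq table. A window runs from 250 bases before to 50 bases after the start of the gene, on build GRCm38.p6, and is written 5′ to 3′ on the strand of the gene with every CG pair in capitals. Gata5 lies on the minus strand (chr2:180334630-180334929), Nkx2-2 on the minus strand (chr2:147186353-147186652), Foxc1 on the plus strand (chr13:31806396-31806695) and Foxd1 on the plus strand (chr13:98353995-98354294).
Gata5: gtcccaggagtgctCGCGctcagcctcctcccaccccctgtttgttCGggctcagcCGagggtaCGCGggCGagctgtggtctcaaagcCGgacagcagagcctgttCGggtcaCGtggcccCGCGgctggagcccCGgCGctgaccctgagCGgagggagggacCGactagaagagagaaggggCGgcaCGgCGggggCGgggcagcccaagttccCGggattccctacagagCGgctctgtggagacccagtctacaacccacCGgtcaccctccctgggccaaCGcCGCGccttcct
Nkx2-2: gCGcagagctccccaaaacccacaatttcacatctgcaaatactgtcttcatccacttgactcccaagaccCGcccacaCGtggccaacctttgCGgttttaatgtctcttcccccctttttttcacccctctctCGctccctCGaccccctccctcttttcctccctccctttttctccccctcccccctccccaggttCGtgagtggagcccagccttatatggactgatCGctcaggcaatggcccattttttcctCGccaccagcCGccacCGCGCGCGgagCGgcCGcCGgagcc
Foxc1: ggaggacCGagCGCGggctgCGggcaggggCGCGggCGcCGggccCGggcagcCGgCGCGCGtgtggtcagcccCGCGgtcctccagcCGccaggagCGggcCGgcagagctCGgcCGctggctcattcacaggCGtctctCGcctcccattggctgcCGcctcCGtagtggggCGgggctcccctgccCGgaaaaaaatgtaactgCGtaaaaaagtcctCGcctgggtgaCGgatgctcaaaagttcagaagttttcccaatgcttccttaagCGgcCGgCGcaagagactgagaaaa
Foxd1: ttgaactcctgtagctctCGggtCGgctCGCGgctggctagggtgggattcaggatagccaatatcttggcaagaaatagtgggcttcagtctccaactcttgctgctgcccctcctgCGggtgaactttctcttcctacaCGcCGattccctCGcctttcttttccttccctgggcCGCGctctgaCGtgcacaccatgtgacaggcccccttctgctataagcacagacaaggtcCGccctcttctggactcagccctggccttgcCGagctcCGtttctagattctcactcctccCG

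The windows hold 26 CG pairs for Gata5, 17 for Nkx2-2, 32 for Foxc1 and 15 for Foxd1. Observed over expected CG, the CG count times the window length over the product of the C and G counts, was 0.714 for Gata5 and 0.791 for Nkx2-2, and 0.943 for Foxc1 and 0.624 for Foxd1. The table has windows for 22 of the 37 members, and the median of a member's windows was used. The ratio was above 0.6 in 20 of these 22 members (90.9%), against 49.7% of all measured genes with a window and 35.6% of all genes in the table. Among members above background on no array it was above 0.6 in 12 of 13 (92.3%), against 19.0% of the 5138 measured genes with a window that were above background on no array and 72.5% of those above background on all arrays. The silent members thus had promoters as rich in CG as those of genes with signal everywhere in these cells, unlike most silent genes, whose median ratio was 0.252. The members below 0.6 were Nkx2-5 at 0.466, a cardiac homeobox factor, and Lhx9 at 0.261, a LIM homeobox factor of gonad and limb. These ratios are a description of the windows, with no test.

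**Figure D1:**
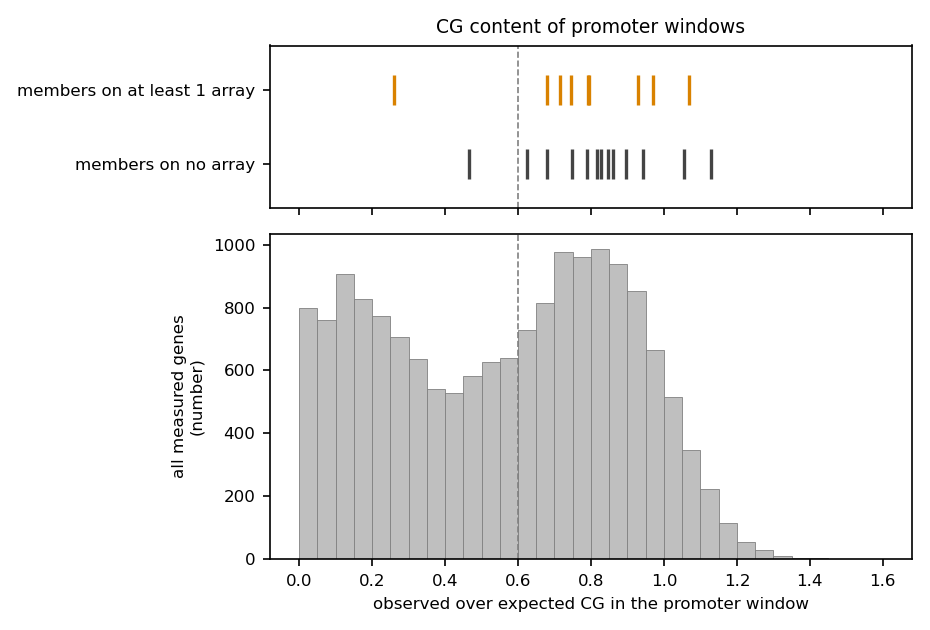
Observed over expected CG (horizontal axis) in promoter windows of the 22 members in the table, as ticks above, and of all measured genes, as a histogram of gene numbers below. The dashed line is 0.6, above which lie 8 of 9 members with signal on at least 1 array and 12 of 13 with signal on none.

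Most members were not well above background in either cell type, with or without Ezh2. Of the 37 members, 25 (67.6%) were above background on 0 of the 8 arrays, against 31.6% of all genes. A further 6 (16.2%) were above background on all 8 arrays, against 50.2% of all genes, and 6 on some arrays. By this flag "silenced" describes 25 of the 37 on these arrays. Gata5, Sim2, Bmp7, Nkx2-2, Sox1 and Zic1 each had at least 1 probe above background on all 8 arrays. Whether such a probe also reads a related gene is not known. A list of 63 relatives from the same families had 43 members on no array (68.3%). On single arrays the members above background numbered 9 in double mutant MEP, 6 in Ezh2Δ/Δ MEP, 8 in double mutant LSK and 9 in Ezh2Δ/Δ LSK, against 6 in JAK2V617F MEP, 8 in WT MEP, 7 in JAK2V617F LSK and 8 in WT LSK. In sorted fractions, fewer cells with a transcript and less of it per cell cannot be told apart. The ranges overlap, with 8 ± 1.41 members on deleted arrays and 7.25 ± 0.957 on intact arrays (mean ± SD, n = 4 each), a difference of 0.75 members. The scanner software has a weaker flag for signal that is positive and significant against the local background. By that flag 16.25 ± 2.63 members had signal on deleted arrays and 14.5 ± 3.70 on intact arrays, a difference of 1.75 that is also within the spread. Of the 31 probes of the 25 members that were never well above background, 2 to 10 carried it per array. The share of all genes above background lay between 54.0% and 62.3% per array.

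**Figure D2:**
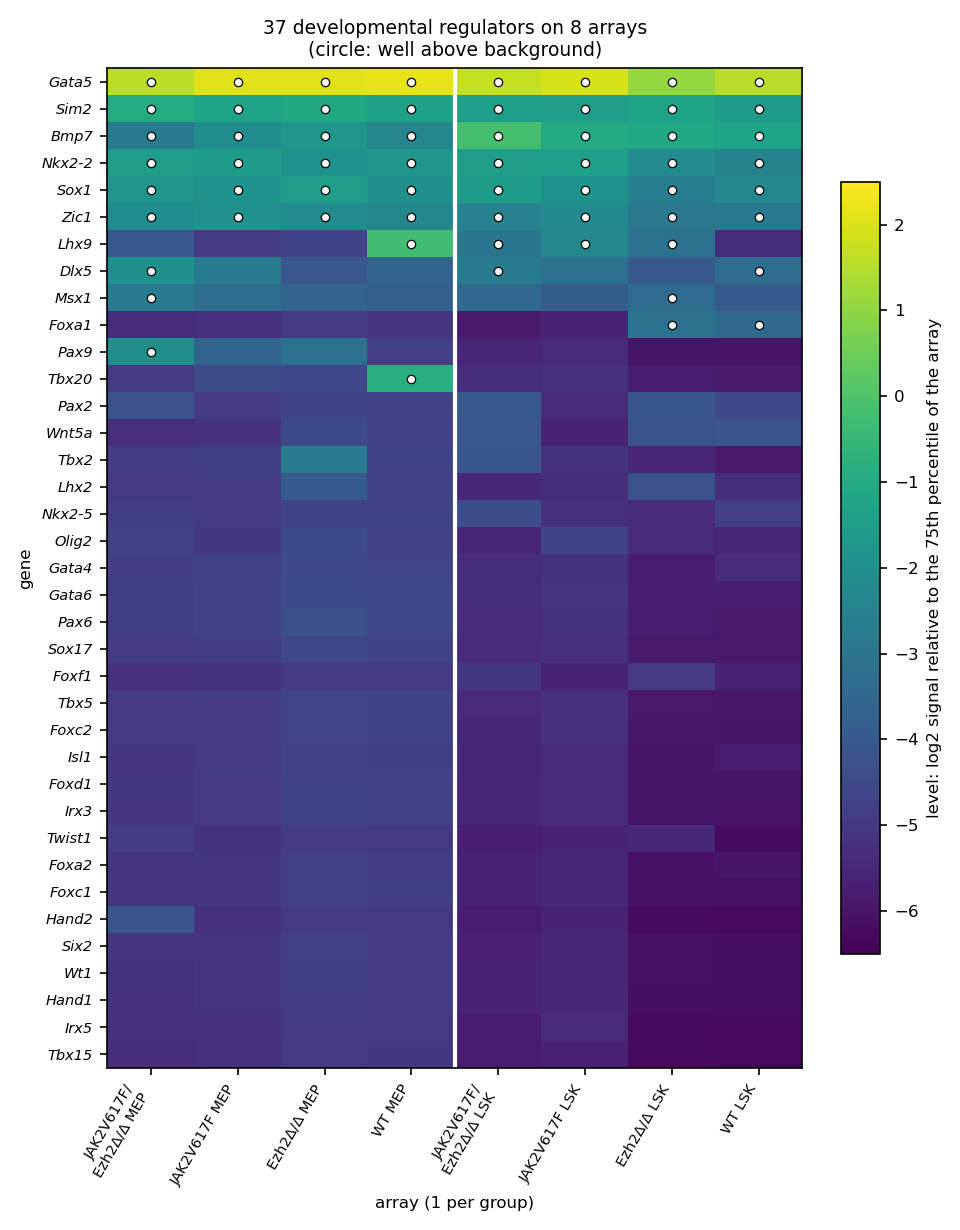
Levels (colour, log2 signal minus the 75th percentile of its array) of the 37 members (rows) on the 8 arrays (columns, MEP left of LSK), with a circle where the gene was well above background. The lower 25 rows carry 0 circles, and the upper 6 rows carry 8 circles each.

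The silent members span every family. Among them were the heart regulators Gata4, Gata6, Hand1, Hand2, Nkx2-5, Isl1, Tbx2 and Tbx5, the kidney regulators Pax2, Six2 and Wt1, the eye and neural regulators Pax6, Olig2 and Lhx2, and the endoderm factors Foxa2 and Sox17. The others were the forkhead factors Foxf1, Foxc1, Foxc2 and Foxd1, the Iroquois factors Irx3 and Irx5, the T-box factor Tbx15, the mesodermal factor Twist1 and the ligand Wnt5a. Their median level per array was between -5.02 and -4.70 in MEP and between -5.92 and -5.38 in LSK. The lowest level that counted as above background was between -3.02 and -2.66 on MEP arrays and between -4.00 and -3.35 on LSK arrays, or 19.4 to 32.2 intensity units over all arrays. A gene whose signal stayed under these limits on both arrays of a pair gave no reliable difference, so for the 25 the arrays bound the signal and show no change or lack of change. Over the 8 arrays the silent probe nearest to the limit lay between 0.127 and 1.83 below it. Tbx2 in Ezh2Δ/Δ MEP, at -2.82, was 0.154 below that array's limit, and Wnt5a in WT LSK, at -4.13, was 0.127 below. Tbx2 stood at -4.88 in double mutant MEP, -4.11 in double mutant LSK and -5.57 in Ezh2Δ/Δ LSK, against -4.84 in JAK2V617F MEP, -4.68 in WT MEP, -5.19 in JAK2V617F LSK and -5.86 in WT LSK, all below background.

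A single spot can look like a gain. Isl1, a LIM homeobox factor of heart and motor neurons, has 10 spots of 1 probe, and in Ezh2Δ/Δ MEP 1 of them read 199.8 intensity units while the median spot read 7.0. The scanner software had flagged that spot as an outlier, and outlier spots were left out, after which Isl1 stood at -4.74, below background.

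Probes of the same gene often disagreed. The 37 members have 52 probes, of which 39 were above background on no array. Of the 6 members measured everywhere 3, Nkx2-2, Sim2 and Zic1, have 1 probe above background on all 8 arrays and another on 0. Sox1 has a second probe above background on 1 array, and Gata5 and Bmp7 have 1 probe each. The levels below are those of the brightest probe.

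The 6 members measured on every array had effects of Ezh2 deletion between -0.32 and 0.24, and 0 of the 6 were called. Gata5, a zinc finger factor of heart and endoderm, stood at 1.57 in double mutant MEP, 2.09 in Ezh2Δ/Δ MEP, 1.73 in double mutant LSK and 1.09 in Ezh2Δ/Δ LSK, against 2.09 in JAK2V617F MEP, 2.18 in WT MEP, 1.95 in JAK2V617F LSK and 1.54 in WT LSK. It was lower on the deleted array of all 4 pairs, but the groups overlap, and the limma effect was -0.32 (95% interval -0.85 to 0.20, adjusted p = 0.618). Sim2, a bHLH factor, stood at -0.98 in double mutant MEP, -1.02 in Ezh2Δ/Δ MEP, -1.41 in double mutant LSK and -1.29 in Ezh2Δ/Δ LSK. On the intact arrays it stood at -1.28 in JAK2V617F MEP, -1.35 in WT MEP, -1.46 in JAK2V617F LSK and -1.56 in WT LSK. It was higher on the deleted array of all 4 pairs, with an effect of 0.24 (interval -0.14 to 0.62, adjusted p = 0.612). With the signal averaged over both of its probes the effect was -0.071.

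Bmp7 is a bone morphogenetic protein, a ligand of the TGF-beta family. Its level was -2.80 in double mutant MEP, -1.74 in Ezh2Δ/Δ MEP, -0.16 in double mutant LSK and -1.14 in Ezh2Δ/Δ LSK, against -2.10 in JAK2V617F MEP, -2.39 in WT MEP, -1.01 in JAK2V617F LSK and -1.27 in WT LSK. The pairs went both ways, and the Ezh2 effect was 0.23 (interval -0.51 to 0.98, adjusted p = 0.853). Sox1, a factor of neural progenitors, had levels of -1.78 in double mutant MEP, -1.46 in Ezh2Δ/Δ MEP, -1.54 in double mutant LSK and -2.65 in Ezh2Δ/Δ LSK, against -1.86 in JAK2V617F MEP, -1.99 in WT MEP, -1.88 in JAK2V617F LSK and -2.32 in WT LSK. Its effect was 0.16 (interval -0.43 to 0.74, adjusted p = 0.891), with the groups overlapping. For Nkx2-2, a homeobox factor of the ventral neural tube and the endocrine pancreas, the 8 levels lay between -2.47 in WT LSK and -1.41 in JAK2V617F LSK, with a deleted mean of -1.75 ± 0.322 and an intact mean of -1.80 ± 0.467 (SD, n = 4 each). Zic1, a zinc finger factor of the cerebellum, lay between -2.94 in Ezh2Δ/Δ LSK and -1.96 in JAK2V617F MEP, with a deleted mean of -2.44 ± 0.377 and an intact mean of -2.34 ± 0.370. The effect on Nkx2-2 was 0.05 (interval -0.40 to 0.51, adjusted p = 0.975), and -0.065 after quantile normalization. The effect on Zic1 was -0.10 (interval -0.51 to 0.32, adjusted p = 0.925), and 0.045 with the percentile taken over probes above background on all arrays. All 6 intervals lay inside a 2-fold change in either direction in this fit, whose p-values measure the spread of the 8 arrays around the averaged effects.

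**Figure D3:**
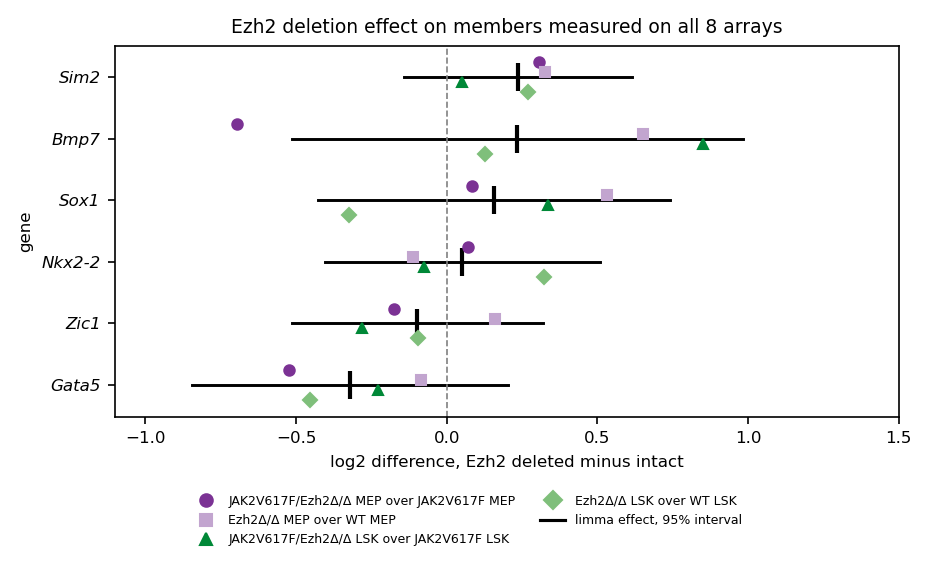
Log2 difference between Ezh2 deleted and intact arrays (horizontal axis) for the 6 members measured on all 8 arrays, with 1 symbol per matched pair, a vertical bar for the limma effect and a line for its 95% interval. All 6 lines cross 0, and the 4 symbols of Gata5 lie below 0 while those of Sim2 lie above it.

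The other 6 members with any signal were above background on 1 to 4 arrays, and none of them was above background on all deleted and no intact arrays (0 of 6). Lhx9 was above background on 4 arrays, at -2.97 in double mutant LSK and -3.13 in Ezh2Δ/Δ LSK, against -0.25 in WT MEP and -2.34 in JAK2V617F LSK. It was below background at -4.04 in double mutant MEP and -4.69 in Ezh2Δ/Δ MEP, against -4.97 in JAK2V617F MEP and -5.33 in WT LSK. The Ezh2Δ/Δ array was thus below its WT array in MEP and above it in LSK. Tbx20, a T-box factor of the heart, was above background in WT MEP alone, at -0.86 or 118.7 intensity units, and its other levels lay between -5.86 and -4.45. Both genes were read there from 1 spot of 1 probe, and the other probes of Lhx9 and of Tbx20 were above background on no array. Of the 10 stromal markers, the WT MEP array had 5 above background, the most of any array, and it was the brightest array for Cxcl12 at -0.77 and Col3a1 at -0.65, which were at most -3.42 and -3.83 elsewhere. Col1a1, Pdgfra, Dcn and Prrx1 were above background on no array. The log2 summed level of the 10 markers was 4.16 in WT MEP and 3.35 to 4.18 over all 8 arrays. Lepr was the brightest of the 10 in WT MEP, at 3.75, so the sum can hardly show markers as dim as Cxcl12 and Col3a1. The part of stromal cells in these readings was not tested.

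Pax9, a paired-box factor of tooth and pharyngeal pouch, was above background in double mutant MEP at -2.04, against -3.59 in JAK2V617F MEP, which was below background. In Ezh2Δ/Δ MEP it was at -3.11, against -4.78 in WT MEP, both below background. On the 4 LSK arrays it lay between -6.02 and -5.38, below background. With 1 of 8 arrays above background no size is given for its change over the pairs. Limma did not call it within MEP (adjusted p = 0.177) or for the difference between MEP and LSK (adjusted p = 0.596). Its second probe was above background on no array.

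Dlx5, a homeobox factor of the jaw and bone, stood at -1.98 in double mutant MEP, -4.04 in Ezh2Δ/Δ MEP, -2.81 in double mutant LSK and -3.99 in Ezh2Δ/Δ LSK, against -2.81 in JAK2V617F MEP, -3.63 in WT MEP, -3.14 in JAK2V617F LSK and -3.27 in WT LSK. It was above background in double mutant MEP, double mutant LSK and WT LSK. Msx1, a homeobox factor of tooth and palate, was above background in double mutant MEP at -2.83 and in Ezh2Δ/Δ LSK at -3.36, and at -3.93 to -3.25 on the intact arrays, all below background. The flag is set spot by spot, so Dlx5 in JAK2V617F MEP and JAK2V617F LSK, and Msx1 in double mutant LSK at -3.41 and in WT LSK at -3.93, lay above the lowest flagged level of their arrays without being flagged. Foxa1, a forkhead factor of liver and other endoderm, was above background in Ezh2Δ/Δ LSK at -3.11 and in WT LSK at -3.39, and between -5.84 and -4.99 on the other arrays. Double mutant MEP, where Pax9, Dlx5 and Msx1 were above background, was also the only array with the stromal gene Lum above background. Lum was at -1.46 there, against at most -4.80 elsewhere. Of the 10 stromal markers 4 were above background on that array, while Cxcl12 and Col3a1 were below it, both at -4.98. The log2 summed level of the 10 was 4.11 there and 3.35 to 4.18 over all 8 arrays. Lepr was the brightest of the 10 on that array, at 3.88, so the sum can hardly show a marker as dim as Lum. The part of stromal cells in the 3 readings was not tested.

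**Figure D4:**
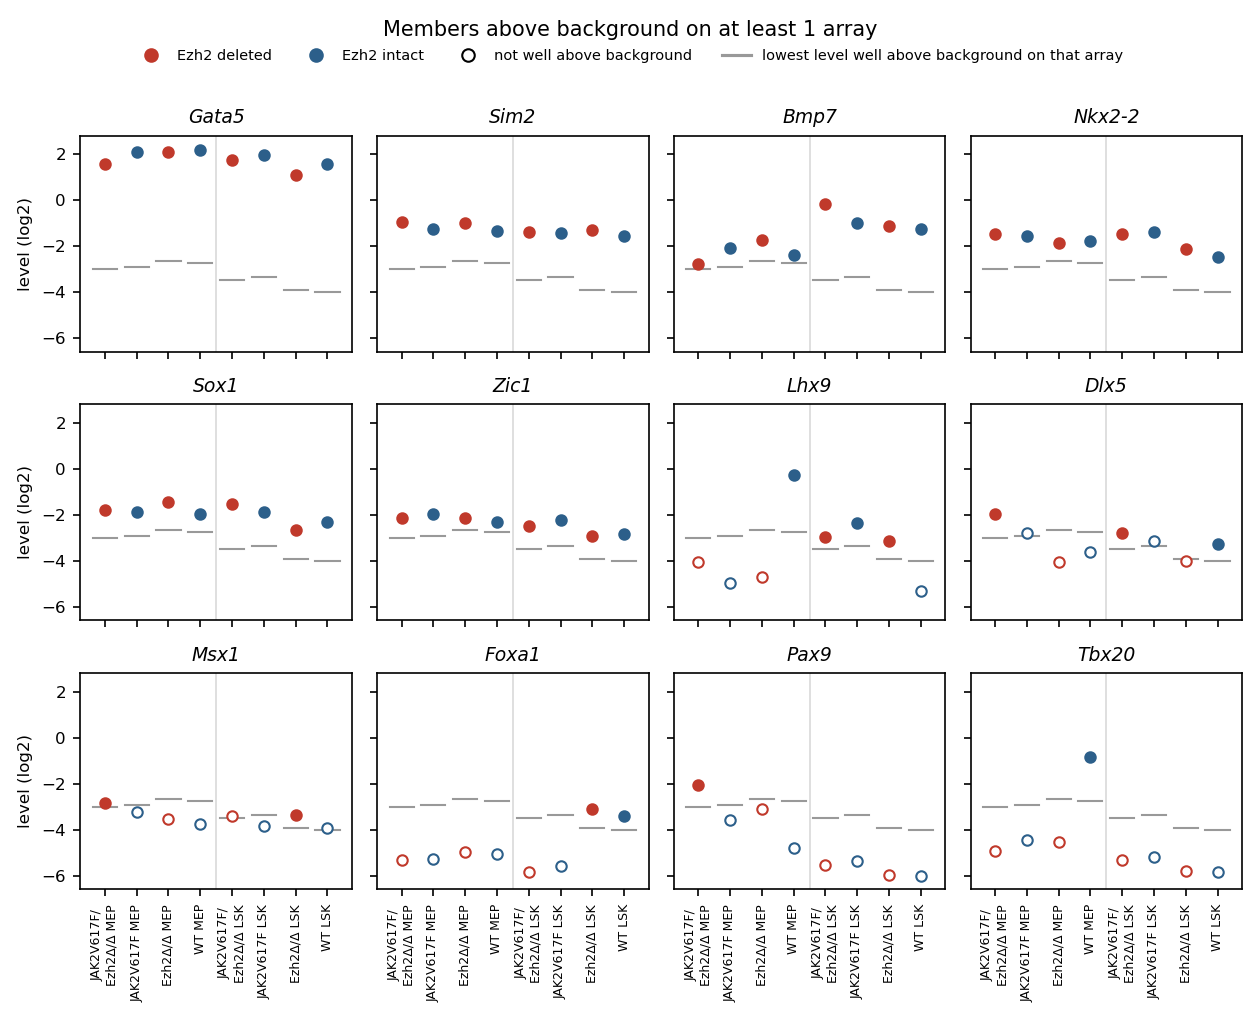
Levels (vertical axis, log2 signal minus the 75th percentile of its array) of the 12 members above background on at least 1 array, on each of the 8 arrays (horizontal axis, MEP left of LSK). Filled symbols were well above background, red is Ezh2 deleted, blue is Ezh2 intact, and grey bars are the lowest level well above background on the array; Lhx9 and Tbx20 are highest in WT MEP.

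Counted in single pairs, members gained the background flag with deletion 6 times and lost it 3 times, against 2594 gains and 1348 losses over all genes. In MEP, the double mutant against JAK2V617F gained Pax9, Dlx5 and Msx1 (background 4.04% of genes) and lost 0 members (1.99%), and Ezh2Δ/Δ against WT gained 0 (2.79%) and lost Lhx9 and Tbx20 (2.34%). In LSK, the double mutant against JAK2V617F gained Dlx5 (3.38%) and lost 0 (0.809%), and Ezh2Δ/Δ against WT gained Lhx9 and Msx1 (2.22%) and lost Dlx5 (1.32%). No member gained the flag in both pairs of MEP, and none in both pairs of LSK (0 of 37 each). Differences of at least 2-fold in the values as written, with the higher array above background, were rarer, at 4. In all 4 the lower array was below background, so each size is a bound against that array's lowest level above background, and 2 of the 4 bounds reach 2-fold. Pax9 was at least 1.85-fold higher in double mutant than in JAK2V617F MEP (4.63% of genes higher, with 0 members lower and 5.34% of genes lower). Lhx9 was at least 5.32-fold and Tbx20 at least 3.49-fold lower in Ezh2Δ/Δ than in WT MEP (1.88% of genes lower, with 0 members higher and 3.12% of genes higher). Each of these WT MEP values came from 1 spot of 1 probe, and the other probes of both genes were below background there. Lhx9 was at least 1.83-fold higher in Ezh2Δ/Δ than in WT LSK (3.23% of genes higher, with 0 members lower and 1.4% of genes lower). In double mutant against JAK2V617F LSK it was 0 members in either direction (3.88% of genes higher and 1.22% lower). With 1 array a group these counts have no test.

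Over the 4 pairs, Ezh2 deletion changed 0 of the 37 members by limma at an adjusted p under 0.05, beside 52 of 20887 genes (0.249%), and 1 member had an unadjusted p under 0.05. A share this small leaves a list of 37 with 0 calls at the background rate, so the count says nothing particular about the members. That 1 member was Pax2, below background on all arrays, for which no fold is given. The median effect was -0.03 over the 37 members, 17 of them above 0, and -0.04 over all genes. Restricted to genes above background on at least 2 of 8 arrays, 10 members remained, with 0 called beside 0.713% of genes. Within LSK 0 members were called (0.00958% of genes, 2 members at an unadjusted p under 0.05), and within MEP 0 (0.00958%, 1 member). Each effect within a cell type rests on 2 pairs of arrays, so 0 calls there says little. The 2 genes called in each cell type were lower with deletion. The difference between MEP and LSK in the Ezh2 effect was called for 0 members (0.0%, 1 unadjusted), as was the difference between JAK2V617F and JAK2 wild type (0.0%, 1 unadjusted). Markers of other blood lineages moved in part with Ezh2 status. Of 6 B cell markers 1 was called, and all 6 had effects above 0 (list median 1.63), with 2 to 5 of them above background on deleted arrays and 1 on each intact array, and the pre-B gene Vpreb3 was called (limma adjusted p = 0.0270), above background on 4 deleted and 0 intact arrays. The B cell factor Pax5 was above background on no array. By pair, the log2 summed level of the 6 was 2.04 in double mutant against 1.34 in JAK2V617F MEP. It was 4.71 in Ezh2Δ/Δ against 1.07 in WT MEP. In LSK the same genotypes had 4.19 against 4.39 and 5.17 against 3.98. Of 5 T and NK cell markers 1 was called, Gzma (limma adjusted p = 0.0450), above background on 3 deleted and 1 intact array. All 5 had effects above 0 (list median 0.54). Their log2 summed level was higher on the deleted array of all 4 pairs. In the order above, the pairs had 2.34 against 1.98 and 2.46 against 2.29 in MEP. In LSK they had 4.50 against 3.52 and 4.39 against 4.16. Of 6 granulocyte markers 0 were called and 5 had effects above 0 (list median 0.53). Their log2 summed level was higher with deletion in both MEP pairs, at 8.16 against 7.35 and 5.53 against 4.49. It was lower in both LSK pairs, at 9.38 against 10.8 and 8.59 against 9.17. Of 8 erythroid markers 0 were called and 1 had an effect above 0 (list median -0.36). Of 3 monocyte markers 0 were called and 1 had an effect above 0 (list median -0.36). Of 6 megakaryocyte markers 0 were called and 4 had effects above 0 (list median 0.08). The part of these lineages in the readings of the members was not tested.

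Transcripts of the complex that writes the mark were measured on every array. Those of all 11 PRC2 subunits were above background on 8 arrays, and 0 were called with Ezh2 deletion (median -0.13). The effects of Ezh1, Eed and Suz12, which form the complex with or in place of Ezh2, were -0.13 (SE 0.25, adjusted p = 0.933), -0.19 (SE 0.17, adjusted p = 0.709) and -0.25 (SE 0.18, adjusted p = 0.631), and that of Ezh2 was -0.28 (SE 0.20, adjusted p = 0.615). Of 21 subunits of the partner complex PRC1 and demethylases of the same histone mark, 20 were above background on some array, 0 were called lower and 1 was called higher, Bmi1, a PRC1 ring finger protein, at 1.34 (SE 0.17, limma adjusted p = 0.0402). Its level was 3.79 in double mutant MEP, 4.11 in Ezh2Δ/Δ MEP, 3.68 in double mutant LSK and 3.51 in Ezh2Δ/Δ LSK, against 2.43 in JAK2V617F MEP, 2.62 in WT MEP, 2.27 in JAK2V617F LSK and 2.41 in WT LSK, with no overlap.

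Of the 63 relatives 0 were called with Ezh2 deletion, with a median effect of -0.02 and 31 above 0. The ligands among the relatives with signal on 4 or more arrays differed in their effects, and none passed the test (0 of 5). Wnt10b, a WNT ligand, was at -0.56 in double mutant MEP, -1.38 in Ezh2Δ/Δ MEP, -0.78 in double mutant LSK and -0.36 in Ezh2Δ/Δ LSK, against -1.89 in JAK2V617F MEP, -2.56 in WT MEP, -3.81 in JAK2V617F LSK and -3.29 in WT LSK. It was higher on the deleted array of all 4 pairs, by 2.12 in the fit (SE 0.41, adjusted p = 0.136), which takes in 2 intact arrays below background. Bmp2, a ligand related to Bmp7, was higher on the deleted array of all 4 pairs, with an effect of 1.25 (SE 0.43, adjusted p = 0.415). Bmp4 and the WNT ligand Wnt6, above background on 4 arrays each, were named after their values were seen. Bmp4, above background on 3 deleted and 1 intact array, was higher on the deleted array of all 4 pairs. Its effect was 1.56 (SE 0.35, adjusted p = 0.193). Wnt6 lay between -5.24 and -4.89 in MEP, below background, and had an effect of -0.026 (SE 0.22, adjusted p = 0.975). Both effects take in arrays below background. Wnt1, above background on 8 arrays, had an effect of 0.17 (SE 0.18, adjusted p = 0.769). The homeobox, forkhead and SOX relatives measured on all 8 arrays, namely Dlx3, Irx4, Lhx6, Msx2, Foxl2 and Sox21, had effects between -0.25 for Irx4 and 0.29 for Lhx6.

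JAK2V617F called 0 of the 37 members (0.0862% of genes, 5 members at an unadjusted p under 0.05), with a member median of 0.11 and a median of 0.08 over all genes. Dlx5 had the lowest adjusted p, with a mean level of -2.69 ± 0.493 on JAK2V617F arrays and -3.73 ± 0.359 on JAK2 wild-type arrays (SD, n = 4 each), but it was above background on 2 of the 4 JAK2V617F arrays and 1 of the 4 JAK2 wild-type arrays, and no fold is given (adjusted p = 0.478). Nkx2-2 averaged -1.49 ± 0.0576 on JAK2V617F arrays and -2.07 ± 0.311 on JAK2 wild-type arrays, an effect of 0.58 that was not called (SE 0.20, adjusted p = 0.557). Foxa1, above background on 0 JAK2V617F arrays and 2 JAK2 wild-type arrays, has no fold here.

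MEP against LSK is the comparison in which members were called, and most of those calls rest on values below background. Limma called 20 of 37 members (46.2% of all genes), 19 higher and 1 lower in MEP, of which 18 were below background on all 8 arrays. For dim spots the files hold a small positive value set by the array, and the lowest level on an array averaged -5.18 in MEP and -6.04 in LSK, a difference of 0.87. The 18 differences lay between 0.72 and 1.14, around that value, and no fold is given for them. Bmp7 and Pax9 were the other called members. Bmp7 was at -2.80 in double mutant, -2.10 in JAK2V617F, -1.74 in Ezh2Δ/Δ and -2.39 in WT MEP, against -0.16 in double mutant, -1.01 in JAK2V617F, -1.14 in Ezh2Δ/Δ and -1.27 in WT LSK, above background throughout and with no overlap. Its level was 2.57-fold lower in MEP, a log2 difference of -1.36 (SE 0.32, n = 4 against 4, adjusted p = 0.0191). Pax9 was above background on 1 of 4 MEP arrays and 0 LSK arrays, so its call (adjusted p = 0.00290) rests mostly on values below background and no fold is given. With dim values raised to 1 common floor it was not called (log2 difference 0.15, adjusted p = 0.471). Zic1 had a difference of 0.48 (SE 0.18, adjusted p = 0.0582), with means of -2.14 ± 0.144 in MEP and -2.63 ± 0.329 in LSK, and was called where only genes above background on at least 2 arrays were tested (adjusted p = 0.0463). In that test 2 members were called, Bmp7 and Zic1, beside 40.0% of genes. Quantile normalization called 0 members, and Bmp7 then had a log2 difference of -1.44 (adjusted p = 0.0623), while with normexp background correction it had -0.71 (adjusted p = 0.00806).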

How the data were processed

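RNA of 8 sorted samples, 20 ng each, was labelled with Cy3 and read on 8 one-colour Agilent arrays of 1 slide in 1 scan. Per the file headers, the deposited intensity values come from version 10.7.1.1 of Agilent's Feature Extraction. It removed background and spatial trend, left arrays unscaled against each other and wrote a small positive surrogate for dim spots. On the slide each cell type had a row and each genotype a column, so position and group cannot be told apart. The authors also deposited a table in which each value is a linear ratio of this signal to 1 number per array, close to the 75th percentile of that array. Of 55681 probes 27509 matched 20887 genes through RefSeq accessions (table of GRCm38.p6, for names).

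Outlier-flagged spots were left out, spots of a probe averaged, log2 taken and the 75th percentile of the array subtracted. Where a gene has several probes, the one with the highest mean was used, and no filter on dim probes was set. The fits used limma 3.58.1 under R 4.3.3 on every gene (additive in cell type, JAK2 and Ezh2; nested in cell type; with an interaction), with p-values adjusted by Benjamini-Hochberg over all 20887 genes and calls at an adjusted p under 0.05. The fits were tested on simulated data. The number of arrays limits the precision. A fold against a value below background is given within single pairs as a bound from that array's lowest signal above background.

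The members and the lists were chosen with earlier results of these data known. Values are given for members with a call, a signal above background or a 2-fold difference in a pair. For non-members they are given for Ezh2, PRC2 subunits, Bmi1 and relatives above background on 4 or more arrays. The relatives Foxd4, Lhx1 and Nkx2-3 also met this limit and are left out. Alternatives were other scaling, quantile, normexp on median signals (offset 50), the series table, filters on dim probes, a common floor, spots with outlier flags kept (both kinds, not the non-uniform ones alone), averaged probes, a trended prior, an adjusted p under 0.10, and leaving out each array.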

Additional observations from a re-analysis of the deposited data

How the results depend on the processing

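The 0 calls among the members stayed at 0 under all 19 alternatives for the Ezh2 effect, the JAK2V617F effect and the Ezh2 effect within LSK. With 1 array left out, the Ezh2 effect within MEP called 0 to 1 members and its difference between MEP and LSK 0 to 1, in each case Tbx20 without JAK2V617F MEP or without double mutant MEP, and the difference between JAK2 genotypes 0 to 2, Lhx9 and Tbx20 without WT LSK. In these fits the lone array of a group is assumed to vary like the others.

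MEP against LSK, with 20 members called, gave 12 under normexp, 2 with genes above background on at least 2 or on all 8 arrays, 1 with a common floor, 0 under quantile normalization, and 3 to 21 with 1 array left out, 3 being without WT or Ezh2Δ/Δ of either cell type. Over all genes 72.8% of its calls were higher in MEP, and 42.0% under quantile normalization, 49.6% with genes above background on at least 2 arrays and 53.3% with a common floor. The call of Pax9 was lost under quantile normalization (1.77 in the fit, adjusted p = 0.0627) and Bmp7 -1.59 to -1.01 with 1 array left out.

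Members at least 2-fold apart in a pair numbered 4, and 10 at 1.5-fold, 11 with no need for signal, 1 under normexp and 2 with a common floor. The 75th percentile over probes above background everywhere moved the median Ezh2 effect of all genes by 0.14, and Zic1 then had 0.045. Sim2 had -0.071 with probes averaged and Nkx2-2 -0.065 under quantile normalization. With 1 array left out, effects ran from -0.046 to 0.39 for Sox1, -0.085 to 0.16 for Nkx2-2 and -0.046 to 0.59 for Bmp7. The cause of these changes was not tested.

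Genes called for the Ezh2 effect numbered 52, and 4 under quantile normalization, 22 with a common floor, 34 with the other percentile, 94 and 134 with the filters, 98 at an adjusted p under 0.10, 108 with a trended prior, 164 under normexp, and 2 to 48 with 1 array left out. Of the 52, 92.3% were higher with deletion, against 25.0% of the 4. The JAK2V617F effect called 18 genes, and 0 to 144 over the alternatives. MEP against LSK called 9640 genes, and 4625 to 11877 over the settings and 3127 to 9782 with 1 array left out. The Ezh2 effect called 2 genes in each cell type, and 0 to 40 over the settings in LSK and 0 to 72 in MEP, and, with 1 array left out, 2 to 113 in LSK and 174 to 409 in MEP. Arrays limit the members by signal over background, not by depth. By the other flag for signal, positive and significant, the difference in members per array was 1.75, against 0.75. No replicate block could be fitted beside the matched genotypes, because each group has 1 array, all with replicate number 1.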
